A study of Mus musculus with 52 samples.

Results

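The interleukins Il4 and Il13, the alarmin Il33 with its receptor Il1rl1, the chemokines Ccl17 and Ccl22 and their shared receptor Ccr4 were followed through 4T1 tumours of old and young mice given antibodies against immune checkpoints. These 7 genes were taken by symbol from the 47729 genes of the count table, through their Ensembl identifiers. They were chosen by name with expression results of these libraries already known, and which measured values guided the choice is not recorded. Their values are therefore a description, and the number of them past a threshold supports nothing by itself. All 7 passed the filter on low counts that left 17899 genes for testing.

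The tumours grew from 100000 cells of 4T1, a mammary carcinoma line of Balb/C mice, placed in the 4th left mammary fat pad of Balb/C hosts that kept their immune system. Treatment was 3 intraperitoneal doses (days 7, 10 and 13), each 200 µg of anti-CTLA4 (9D9), anti-PD-L1 (10F.9G2) or the isotype control LTF-2. Old mice were more than 12 months of age, and young mice were 8 to 10 weeks (up to 12 weeks in the protocol). The old groups held 8 anti-CTLA4, 8 anti-PD-L1 and 7 isotype tumours, and the young groups held 12, 10 and 7. Every group thus carried the same transplanted line, and no group was left without an injected antibody.

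Type 2 immunity is the arm of the immune response that answers helminths, allergens and tissue damage. Damaged epithelium and stroma release IL-33, which acts through its receptor ST2, the product of Il1rl1, on mast cells, basophils, type 2 innate lymphoid cells and regulatory T cells. Mast cells, basophils, type 2 innate lymphoid cells and T helper 2 cells make IL-4 and IL-13, which signal through IL-4Rα and STAT6. Both cytokines switch macrophages and dendritic cells to a program that includes CCL17 and CCL22. These ligands draw CCR4-bearing T helper 2 and regulatory T cells. The pathway is studied in mammary tumours because these cells can dampen cytotoxic T cells.

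The genes lie in 2 pairs on a shared chromosome and 3 single loci (GRCm38, GENCODE vM21). Il4 (chr11:53602982-53618669, minus strand) and Il13 (chr11:53631324-53634702, minus strand) were 12654 bases apart, and Ccl22 (chr8:94745590-94751699, plus strand) and Ccl17 (chr8:94810453-94812036, plus strand) were 58753 bases apart. Il33 (chr19:29925114-29960718, plus strand), Il1rl1 (chr1:40429570-40465415, plus strand) and Ccr4 (chr9:114490316-114504916, minus strand) stand alone. The annotation places no other gene over any of the 7, and genes lying between the members of a pair were not searched for.

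The 250 bases before the start sites of both pairs are shown because the members of a pair share a neighbourhood and differ in their levels between groups (RefSeq sequence, build GRCm38.p6, each on the strand of its gene). They were searched for the 2 forms of the STAT motif, TTCNNNNGAA with 4 bases between its arms, the spacing that STAT6 prefers, and TTCNNNGAA with 3. Both motifs read the same on either strand. Capitals mark matches; the windows are chr11:53618666-53618915 for Il4, chr11:53634703-53634952 for Il13, chr8:94810203-94810452 for Ccl17 and chr8:94745434-94745683 for Ccl22.
Il4: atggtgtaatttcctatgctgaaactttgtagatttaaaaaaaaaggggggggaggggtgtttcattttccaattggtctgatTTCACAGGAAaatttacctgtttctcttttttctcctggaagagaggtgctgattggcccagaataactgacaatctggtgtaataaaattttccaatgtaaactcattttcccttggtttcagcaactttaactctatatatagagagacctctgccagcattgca
Il13: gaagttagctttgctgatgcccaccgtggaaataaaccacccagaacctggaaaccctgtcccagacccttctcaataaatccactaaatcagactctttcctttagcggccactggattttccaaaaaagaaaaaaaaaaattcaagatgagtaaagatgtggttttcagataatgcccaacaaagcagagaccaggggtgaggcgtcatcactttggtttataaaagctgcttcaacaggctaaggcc
Ccl17: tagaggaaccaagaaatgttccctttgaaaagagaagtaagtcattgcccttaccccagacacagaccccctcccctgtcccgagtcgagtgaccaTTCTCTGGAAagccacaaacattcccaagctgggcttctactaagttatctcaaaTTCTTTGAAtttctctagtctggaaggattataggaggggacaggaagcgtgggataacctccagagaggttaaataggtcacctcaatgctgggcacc
Ccl22: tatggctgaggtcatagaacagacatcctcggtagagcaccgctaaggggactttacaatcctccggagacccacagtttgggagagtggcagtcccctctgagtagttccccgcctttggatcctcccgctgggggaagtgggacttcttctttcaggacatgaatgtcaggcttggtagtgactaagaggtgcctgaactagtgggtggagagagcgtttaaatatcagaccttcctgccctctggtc

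The Ccl17 window held 1 match of each motif, TTCNNNNGAA with its first base at position -154 from the start site and TTCNNNGAA at position -99, and the 2 did not overlap. The Il4 window held 1 TTCNNNNGAA at position -167, and a window at the other RefSeq start site of Il4 held none. The windows of Il13 and Ccl22 held neither motif, nor did those of Il1rl1 and Ccr4, while 1 of the 2 windows of Il33 held 1 TTCNNNNGAA at position -36. Among 32851 RefSeq windows of 250 bases, 5.85% held TTCNNNNGAA and 7.02% held TTCNNNGAA. A match describes letters in this window and is not evidence of binding. The Ccl22 window overlaps the annotated gene, whose start lies upstream of the RefSeq start site. The Ccr4 window (chr9:114496545-114496794) lies inside the annotated gene, as does 1 of the 2 windows of each of Il4, Il33 and Il1rl1.

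Libraries held 9549847 to 53778370 counts, with a median of 20665733.5. Sequencing ran in 3 batches that were not spread evenly over the groups: the 7 young isotype libraries all came from batch 2, the 8 old anti-PD-L1 libraries all from batch 1, and old and young mice shared a batch only under anti-CTLA4. For isotype and anti-PD-L1, the age comparison thus depends on batch differences estimated from other groups. Normalization factors were under 0.8 in 4 libraries, old isotype replicate 3, young anti-CTLA4 replicate 8 and young isotype replicates 1 and 6. The 4 epithelial or tumour cell markers summed to 507 to 3210 CPM over the libraries, so no library lacked them, and markers of B cells and lymph node stroma varied widely within each group, the B cell list from 6.16 to 1800 CPM.

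Levels are given as CPM, the depth-scaled counts after TMM normalization. Comparisons are log2 fold changes ± SE from 1 edgeR quasi-likelihood model of group and sequencing batch, which took in the 52 libraries together. A gene is called at a Benjamini-Hochberg adjusted p under 0.05 over all 17899 genes. In bulk tumour RNA, fewer cells of a type and less RNA per cell cannot be told apart.

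Per length, Ccl17, Il33 and Ccl22 were the most abundant of the 7, and Ccr4 and Il13 the least. The median over 52 libraries was 23.2 TPM for Ccl17, 12.8 TPM for Il33, 12.0 TPM for Ccl22, 2.495 TPM for Il1rl1, 2.38 TPM for Il4, 0.441 TPM for Ccr4 and 0.411 TPM for Il13. The cytokine and receptor levels stood on few counts: Il4 had 6 to 117 counts a library (median 21), Ccr4 2 to 299 (median 22) and Il13 0 to 114 (median 9.5). Counting error is therefore large for these 3 genes, and small for Il33, Ccl17 and Ccl22, whose lowest libraries held 198, 70 and 115 counts.

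**Figure D1:**
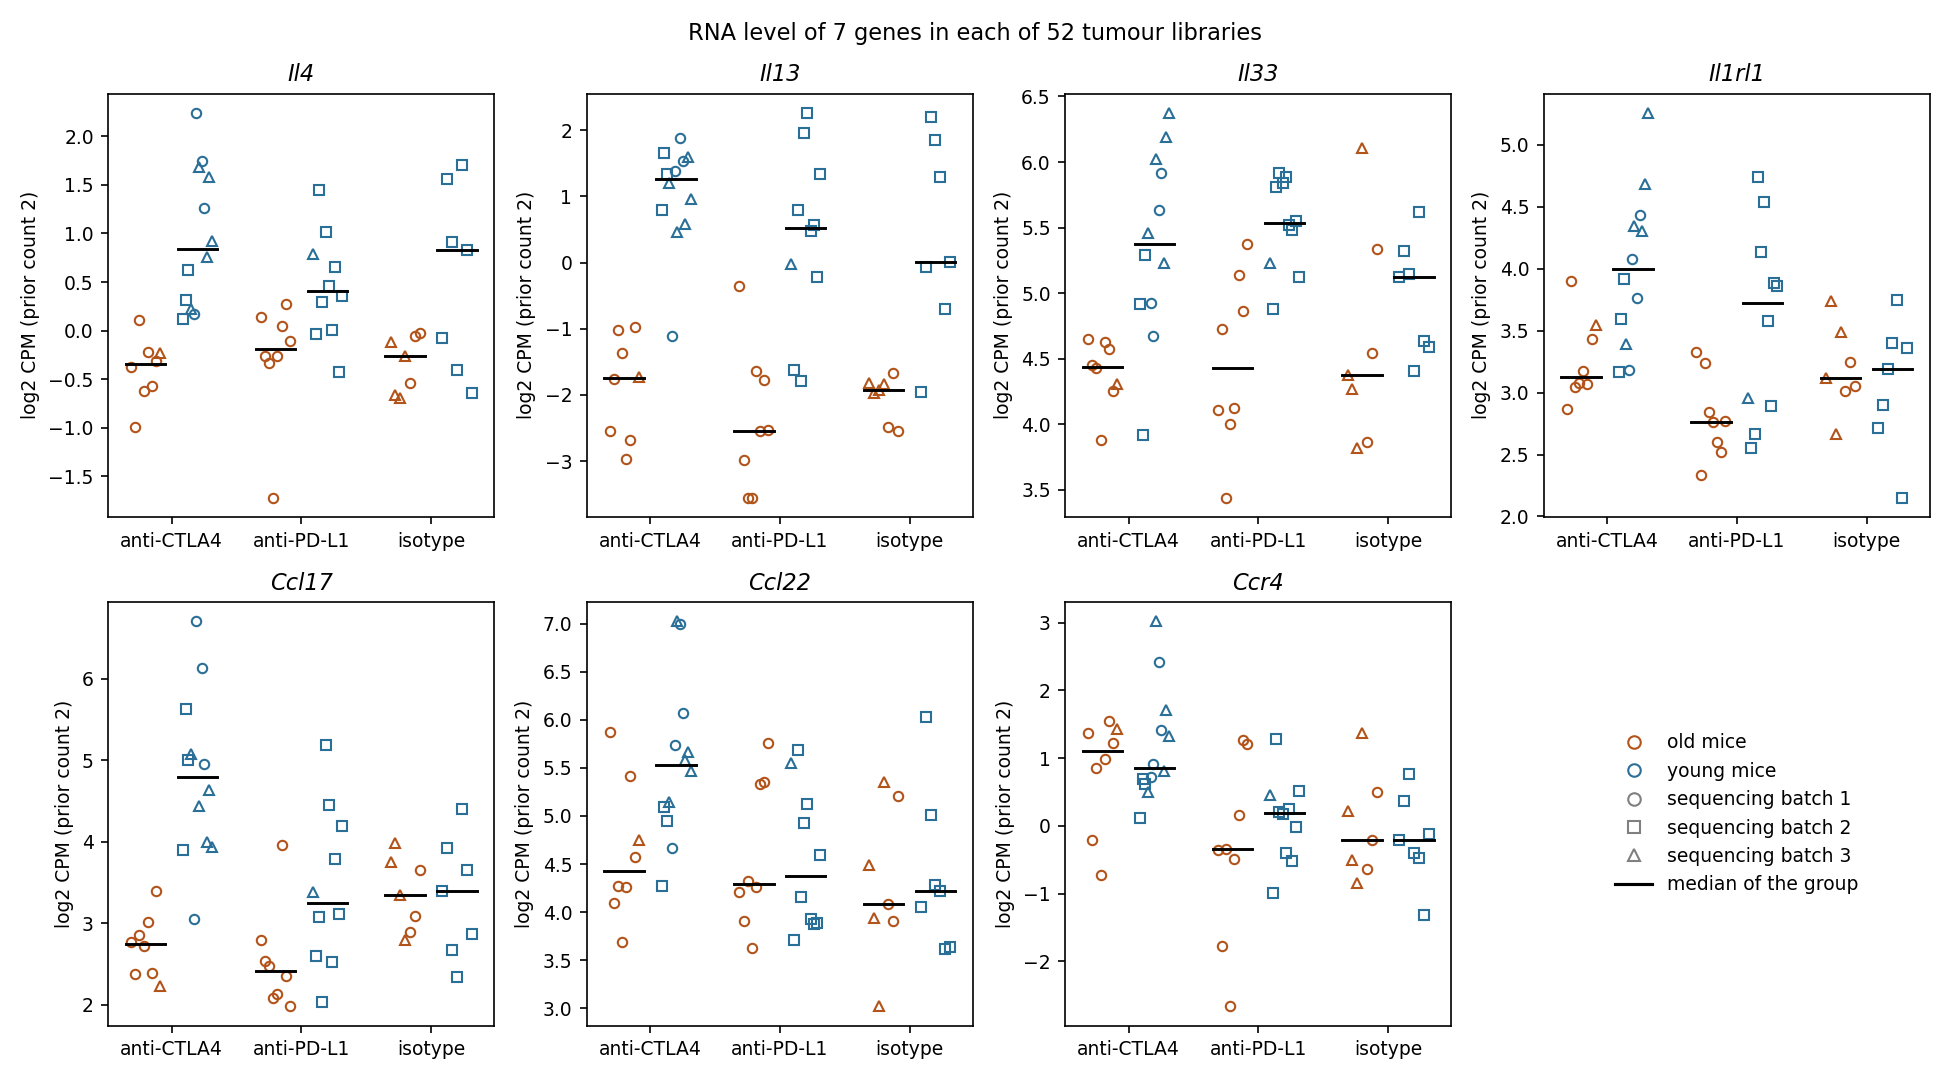
Level of each of the 7 genes in every library as log2 CPM with a prior count of 2, old mice (brown) left of young mice (blue) within each antibody, marker shape by sequencing batch and a bar at the group median. Under anti-CTLA4 the 8 old libraries lie below all 12 young libraries for Il4, while old and young values of Ccr4 overlap.

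Il4 and Il13, the cytokines that drive alternative activation of macrophages, were lower in old than in young tumours under each of the 3 antibodies. Il4 in old tumours was fitted at 0.276 of its young level under anti-CTLA4, 0.309 under anti-PD-L1 and 0.246 under isotype. Il13 was fitted at 0.108 of its young level under anti-CTLA4, 0.121 under anti-PD-L1 and 0.121 under isotype. The 3 ratios of a gene come from 1 fit with shared batch terms, so their closeness is not independent agreement. Mean Il4 was 0.793 CPM in old and 1.38 CPM in young tumours under anti-PD-L1, and 0.721 and 1.66 CPM under isotype. Mean Il13 was 0.170 and 1.74 CPM under anti-PD-L1, and 0.164 and 1.84 CPM under isotype. Outside anti-CTLA4 the fitted sizes depended on the fit: over the other settings the log2 fold change of Il4 ran from -1.76 to -0.80 under anti-PD-L1 and from -2.03 to -1.05 under isotype. That of Il13 ran from -3.36 to -2.04 under anti-PD-L1 and from -3.44 to -1.81 under isotype. Among these settings, the compared groups alone left 3 old libraries of batch 1 against the 7 young under isotype. Under anti-PD-L1 that setting left the 8 old libraries against 1 young library of batch 3. No antibody moved either cytokine past the threshold within an age.

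Under anti-CTLA4, Il4 ran from 0.418 to 0.996 CPM (median 0.703) in 8 old tumours, against 1.002 to 4.65 CPM (median 1.71) in 12 young tumours. The groups did not overlap, although the highest old and the lowest young library were within a hundredth of a CPM of each other. The log2 fold change was -1.86 ± 0.33 (SE), with an adjusted p of 4.34e-05 in edgeR.
Under anti-PD-L1, Il4 ran from 0.218 to 1.12 CPM (median 0.795) in 8 old tumours, against 0.659 to 2.64 CPM (median 1.24) in 10 young tumours. All 8 old tumours lay below the young median, yet only 1 lay below every young tumour. The fitted difference was -1.69 ± 0.49 (adjusted p = 0.0343).
Under isotype, Il4 ran from 0.531 to 0.901 CPM (median 0.748) in 7 old tumours, against 0.555 to 3.19 CPM (median 1.70) in 7 young tumours. The old values were close together and overlapped the lower end of a broad young group, with 4 of 7 young tumours above every old one. The fitted difference was -2.02 ± 0.51 (adjusted p = 0.0101). The anti-PD-L1 call of Il4 held in 2 of 9 other settings (adjusted p up to 0.773), and was lost without old replicate 3 or 4 (adjusted p up to 0.0523). The isotype call held in 7 of 9 (adjusted p up to 0.428), and the anti-CTLA4 call in 10 of 10.

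The order of the group medians of Il4 depended on the scale. By CPM the 3 young groups led, and young isotype was in place 2. By deposited TPM young isotype came last of the 6 with 1.76 TPM, below old isotype at 1.89 TPM. The factor between TPM and CPM differed between libraries from 0.402 to 1.44 of its median, and the 0.402 belonged to young isotype replicate 6. On either scale each group overlapped its neighbour in the order.

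Il13 showed the widest gap of the 7 genes. Under anti-CTLA4 it ran from 0.0429 to 0.427 CPM (median 0.213) in old tumours, against 0.377 to 3.61 CPM (median 2.33) in young tumours. Young replicate 5 fell among the old libraries, and the other 11 lay above all 8 old tumours. The log2 fold change was -3.21 ± 0.63 (adjusted p = 0.000163).
Under anti-PD-L1, Il13 ran from 0 to 0.698 CPM (median 0.0872) in old tumours, against 0.204 to 4.72 CPM (median 1.36) in young tumours. The gene had no count in 2 of the 8 old libraries. The fitted difference was -3.04 ± 0.93 (adjusted p = 0.0441).
Under isotype, Il13 ran from 0.0858 to 0.230 CPM (median 0.177) in old tumours, against 0.173 to 4.49 CPM (median 0.925) in young tumours. All but 1 of the 7 young tumours exceeded every old one. The fitted difference was -3.05 ± 0.94 (adjusted p = 0.0346). Over the other settings, the Il13 call held in 9 of 9 under anti-CTLA4, in 3 of 9 under anti-PD-L1 (adjusted p up to 0.734) and in 5 of 8 under isotype (adjusted p up to 0.2). With libraries left out in turn, the anti-PD-L1 call held in 10 of 18 fits (log2 fold change -3.79 to -2.81, adjusted p up to 0.0708) and was lost without old replicate 2, 3, 4, 5, 6 or 8 or young replicate 5 or 6. The isotype call held in 10 of 14 fits (-3.23 to -2.67, adjusted p up to 0.0636) and was lost without old replicate 2 or young replicate 3, 4 or 5.

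Il33 and Il1rl1, the alarmin and the receptor that reads it, were called lower in old tumours under anti-CTLA4 and not under the other antibodies, which is not a test that the age difference varied with the antibody. Il33 under anti-CTLA4 ran from 14.6 to 25.1 CPM (median 21.6) in old tumours, against 15.0 to 83.0 CPM (median 41.5) in young tumours. Young replicate 2 was the single young tumour inside the old range. The log2 fold change was -1.08 ± 0.30 (adjusted p = 0.0047), and the call held in 8 of 10 other settings (adjusted p up to 0.182).
Under anti-PD-L1, Il33 ran from 10.8 to 41.5 CPM (median 21.9) in old tumours, against 29.4 to 60.4 CPM (median 46.3) in young tumours. All 8 old tumours lay below the young median, and 6 of them below every young tumour. The fitted difference was -1.31 ± 0.46 with an adjusted p of 0.0838, and it passed without old replicate 8 or young replicate 1 (adjusted p down to 0.0293) and in 2 of 9 other settings, DESeq2 and no batch term (adjusted p from 0.0134 to 0.837). Under isotype, Il33 ran from 14.1 to 69.0 CPM (median 20.7) in old tumours, against 21.1 to 49.1 CPM (median 34.7) in young tumours, a difference of -0.73 ± 0.46 (adjusted p = 0.33). The highest isotype value belonged to an old tumour, replicate 4.

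Il1rl1 under anti-CTLA4 ran from 7.21 to 14.8 CPM (median 8.67) in old tumours, against 8.87 to 38.2 CPM (median 15.9) in young tumours. The ranges overlapped and all 8 old tumours lay below the young median. The log2 fold change was -0.74 ± 0.28 (adjusted p = 0.0398), and the call held in 9 of 20 fits with 1 library left out, with log2 fold changes of -0.86 to -0.64 and adjusted p up to 0.109. The call held in 5 of 10 other settings (adjusted p up to 0.566). It was lost without old replicate 1, 3, 4, 5, 6 or 8 or young replicate 6, 8, 9, 11 or 12.
The receptor did not pass under the other antibodies, save with no batch term under anti-PD-L1 (adjusted p = 0.0119, up to 0.976 over the 9 other settings) and without young anti-PD-L1 replicate 1 (adjusted p = 0.0382). Under anti-PD-L1 its medians were 6.71 CPM in old and 13.2 CPM in young tumours (log2 fold change -1.02 ± 0.46, adjusted p = 0.186). Under isotype they were 8.61 CPM in old and 9.07 CPM in young tumours (-0.20 ± 0.46, adjusted p = 0.826).

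Ccl17, the chemokine also known as TARC, had fitted age differences that spread widest between antibodies among the 7. Under anti-CTLA4 it ran from 4.59 to 10.4 CPM (median 6.62) in old tumours, against 8.201 to 104.3 CPM (median 27.8) in young tumours. Young replicate 5 had the lowest young value, and the other 11 young tumours exceeded all old ones. The log2 fold change was -2.59 ± 0.41 (adjusted p = 1.27e-05).
Under anti-PD-L1, Ccl17 ran from 3.85 to 15.4 CPM (median 5.25) in old tumours, against 4.01 to 36.4 CPM (median 9.47) in young tumours. The groups overlapped, with 3 of 10 young tumours above every old one. The difference was -1.46 ± 0.59 (adjusted p = 0.142).
Under isotype, Ccl17 ran from 6.82 to 15.7 CPM (median 10.1) in old tumours, against 4.96 to 21.0 CPM (median 10.5) in young tumours. The old range lay inside the young range. The difference was -0.01 ± 0.61, with a 95% interval from -1.24 to 1.22 (adjusted p = 0.996).

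The anti-CTLA4 effect on Ccl17 itself had opposite signs in the 2 ages. Anti-CTLA4 over isotype gave -1.02 ± 0.45 in old mice (adjusted p = 0.128) and 1.57 ± 0.49 in young mice (adjusted p = 0.316). The difference of the effects, old minus young, was -2.59 ± 0.66, with an unadjusted p of 0.000281 that ranked 17th of 17899 genes and an adjusted p of 0.29, so it did not pass. Anti-PD-L1 over isotype gave -1.17 ± 0.47 in old mice (adjusted p = 0.101) and 0.28 ± 0.39 in young mice (adjusted p = 0.674), and the 2 antibodies share the isotype libraries within an age. The anti-PD-L1 value in old mice passed without old isotype replicate 5 (adjusted p = 0.0492, log2 fold changes of -1.49 to -1.03 over the libraries left out in turn). Within batch 2, where young anti-CTLA4 and young isotype met, Ccl17 ran from 14.8 to 49.4 CPM in 3 anti-CTLA4 tumours, against 4.96 to 21.0 CPM in 7 isotype tumours. Within batch 1, old mice had 5.12 to 10.4 CPM in 7 anti-CTLA4 tumours, against 7.30 to 12.5 CPM in 3 isotype tumours. Over the other settings the anti-CTLA4 value ran from -1.05 to -0.31 in old mice (adjusted p up to 0.693) and from 1.52 to 1.75 in young mice.

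Ccl22, the second CCR4 ligand, also known as MDC, was called lower in old tumours under anti-CTLA4 and not under the other antibodies. Under anti-CTLA4 it ran from 12.9 to 58.6 CPM (median 21.5) in old tumours, against 19.2 to 130.0 CPM (median 46.0) in young tumours. The groups overlapped broadly, with 3 of 12 young tumours above every old one. The log2 fold change was -1.27 ± 0.39 (adjusted p = 0.0122). Without young replicate 8, 1 of the libraries of low normalization factor, it was -0.96 with an adjusted p of 0.0945, and the call held in 7 of 10 other settings (adjusted p up to 0.125).
Under isotype the medians were 16.9 CPM in old and 18.5 CPM in young tumours, with means of 22.2 ± 12.2 CPM (SD, n = 7) and 25.2 ± 18.8 CPM (SD, n = 7), while the fit gave -1.34 ± 0.60 (adjusted p = 0.15). Under anti-PD-L1 the medians were 19.5 CPM in old and 21.0 CPM in young tumours, with means of 27.5 ± 15.3 CPM (SD, n = 8) and 26.3 ± 14.1 CPM (SD, n = 10), while the fit gave -1.01 ± 0.58 (adjusted p = 0.316). With no batch term the values were -0.19 ± 0.42 under isotype and 0.06 ± 0.37 under anti-PD-L1, so the size under both antibodies came with the batch terms.

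Ccr4, the receptor of both chemokines on T helper 2 and regulatory T cells, did not pass in any comparison. Under anti-CTLA4 it ran from 0.521 to 2.82 CPM (median 2.07) in old tumours, against 1.002 to 8.03 CPM (median 1.73) in young tumours. The old median was the higher of the 2, and the fit with batch gave -0.51 ± 0.45 with a 95% interval from -1.41 to 0.39 (adjusted p = 0.403). Under anti-PD-L1 the medians were 0.702 CPM in old and 1.05 CPM in young tumours (-0.79 ± 0.72, adjusted p = 0.553), and under isotype 0.783 CPM in old and 0.777 CPM in young tumours (-0.66 ± 0.74, adjusted p = 0.62). The 95% intervals under all 3 antibodies held 0 and also a level lower by 1 on the log2 scale.

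**Figure D2:**
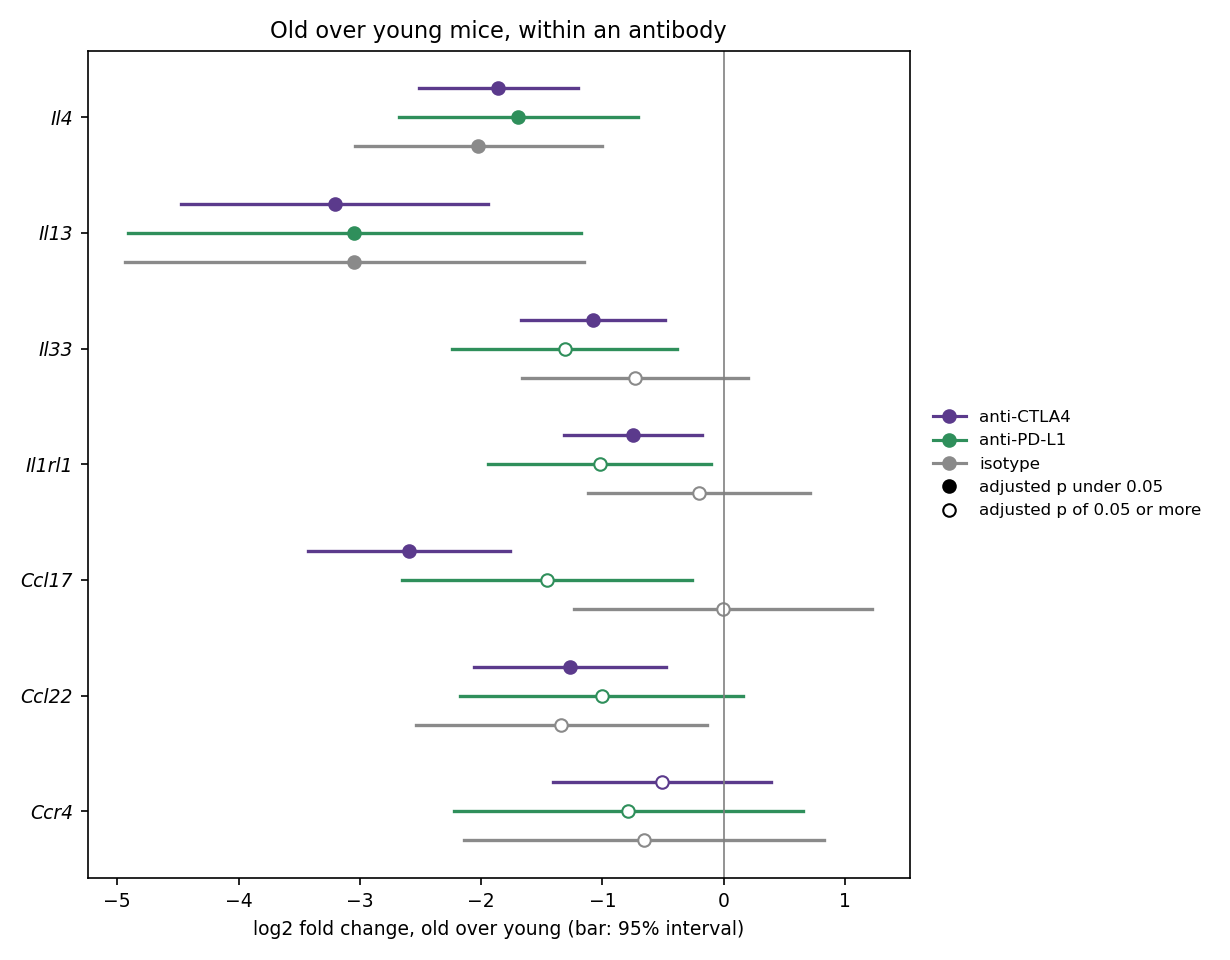
Log2 fold change of old over young mice for each gene within each antibody, with its 95% interval from the edgeR fit and a filled point where the adjusted p was under 0.05. Il4 and Il13 have filled points under all 3 antibodies, Il33, Il1rl1, Ccl17 and Ccl22 under anti-CTLA4 alone, and Ccr4 under none.

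Counted over the set, 6 of 7 members were lower in old tumours under anti-CTLA4, where 30.6% of all tested genes were called, 15.9% lower and 14.8% higher. Under anti-PD-L1, 2 of 7 were lower, where 5.04% of genes were called, 1.97% lower and 3.08% higher. Under isotype, 2 of 7 were lower, where 8.41% of genes were called, 4.04% lower and 4.36% higher. No member was called higher in old tumours in any of the 3. The median log2 fold change of the members was -1.27 under anti-CTLA4, -1.31 under anti-PD-L1 and -0.73 under isotype, beside -0.06, -0.06 and -0.09 over all tested genes. Within batch 1 alone, where 7 old and 4 young anti-CTLA4 tumours met, Il4 (-2.02 ± 0.36), Il33 (-0.94 ± 0.23) and Ccl17 (-2.91 ± 0.47) passed, Il1rl1 and Ccl22 did not, and Il13 fell under the count filter. Il13 in that batch ran from 0.0429 to 0.427 CPM in old tumours, against 0.377 to 3.61 CPM in young tumours.

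Neither antibody changed any of the 7 genes past the threshold against isotype in either age. In young mice, anti-CTLA4 called 0 of 7 members where 0.0726% of genes were called, 0.067% lower and 0.00559% higher. Anti-PD-L1 in young mice called 0 of 7 where 1.59% of genes were called, 1.37% lower and 0.223% higher. In old mice neither antibody called any gene (0% each), although 5321 genes under anti-CTLA4 and 5379 under anti-PD-L1 had an unadjusted p under 0.05, and DESeq2 called 27 and 47. Anti-CTLA4 against anti-PD-L1 called 0 genes in either age (0% each), with 243 genes at an unadjusted p under 0.05 in old and 1242 in young mice and 18 and 13 calls by DESeq2. The differences of the antibody effects between ages also called 0 genes (0% each), with 1257 genes at an unadjusted p under 0.05 for anti-CTLA4 and 655 for anti-PD-L1, and 16 and 30 calls by DESeq2. DESeq2 called no member in any of these 8 comparisons.

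Il1rl1 and Ccr4 had the next largest antibody values after Ccl17. Anti-CTLA4 over isotype gave 0.76 ± 0.37 for Il1rl1 in young mice (adjusted p = 0.7), with 10 of 12 treated tumours above the isotype median, and 0.22 ± 0.30 in old mice (adjusted p = 0.64). Anti-PD-L1 over isotype gave 0.61 ± 0.27 for Il1rl1 in young mice (adjusted p = 0.166) and -0.21 ± 0.31 in old mice (adjusted p = 0.673). For Ccr4, anti-CTLA4 over isotype gave 0.98 ± 0.49 in old mice (adjusted p = 0.171), with 7 of 8 treated tumours above the isotype median, and 0.83 ± 0.61 in young mice (adjusted p = 0.879), with 12 of 12 above it. With no batch term, Il1rl1 (1.006), Ccl17 (1.66) and Ccr4 (1.61) passed for anti-CTLA4 over isotype in young mice, a comparison in which 3 of 12 anti-CTLA4 libraries shared a batch with the isotype libraries.

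**Figure D3:**
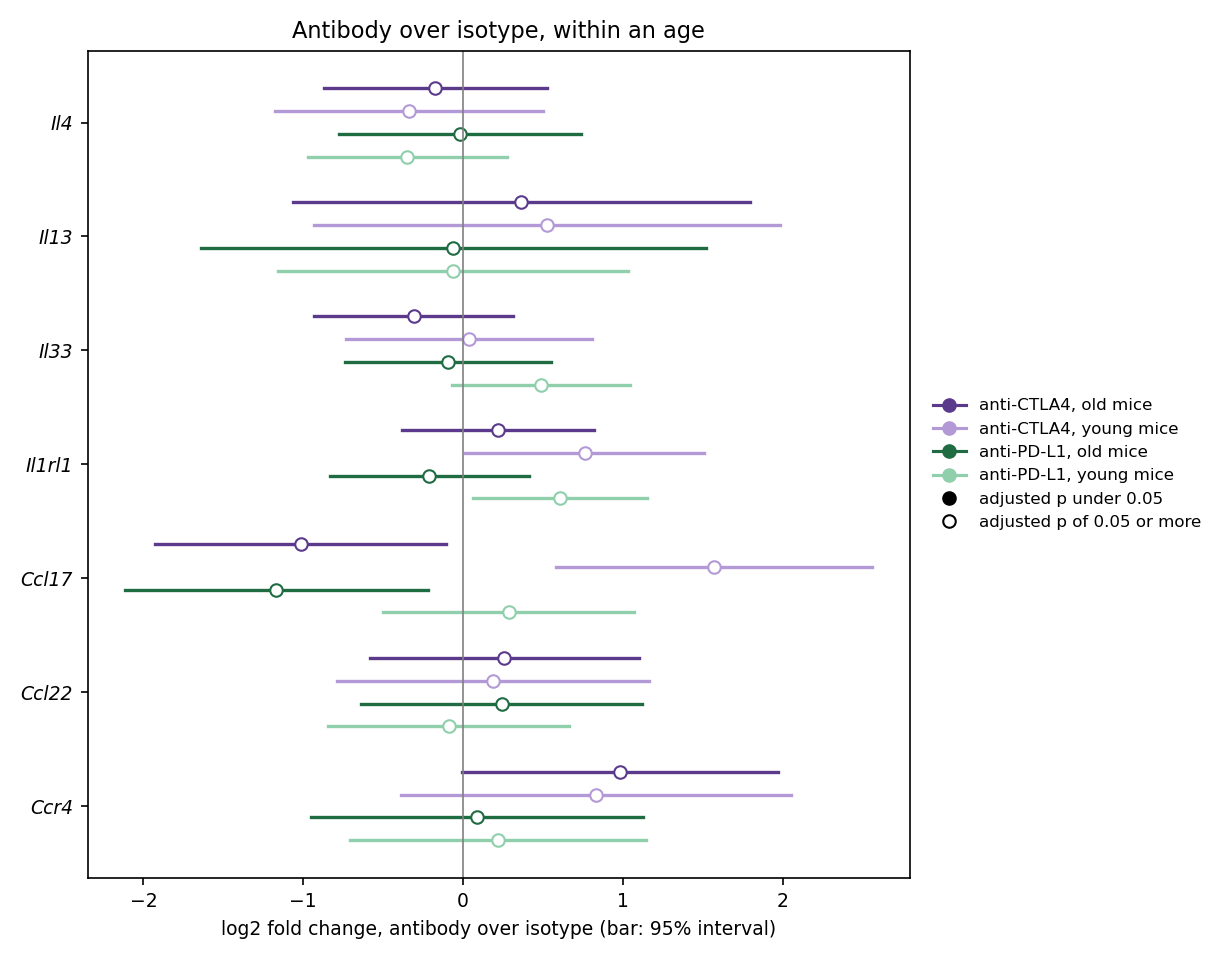
Log2 fold change of antibody over isotype for each gene within each age, with its 95% interval from the edgeR fit; every point is open because no adjusted p was under 0.05. Ccl17 lies below 0 for both antibodies in old mice and above 0 for both in young mice.

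The wider type 2 pathway was read from 5 lists of 48 genes, of which 42 were tested. Under anti-CTLA4, 23 of 42 were lower in old tumours and 0 were higher, where 15.9% of all tested genes were lower and 14.8% higher. Under anti-PD-L1, 10 were lower and 0 higher (1.97% of all genes lower, 3.08% higher), and under isotype 7 were lower and 0 higher (4.04% lower, 4.36% higher). The counts by list below stand against the same shares. The median log2 fold change over the 42 genes was -0.78, -0.99 and -0.84 under anti-CTLA4, anti-PD-L1 and isotype, beside -0.06, -0.06 and -0.09 over all tested genes.

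Of the other cytokines, 4 of 8 were tested, and Il9, Il25, Il3 and Il31 had too few counts. Il10, made by regulatory T cells and macrophages among others, averaged 0.487 ± 0.211 CPM (SD, n = 8) in old and 2.39 ± 0.900 CPM (SD, n = 12) in young anti-CTLA4 tumours, a log2 fold change of -2.38 ± 0.52 (adjusted p = 0.000592). It was also lower in old tumours under anti-PD-L1 (-3.42 ± 0.75) and isotype (-2.53 ± 0.76). Il5, the eosinophil growth factor encoded in the same cytokine cluster as Il4 and Il13, passed under anti-CTLA4 (-2.60 ± 0.62, adjusted p = 0.00136). Its values under anti-PD-L1 (-2.45 ± 0.94, adjusted p = 0.117) and isotype (-2.12 ± 0.95, adjusted p = 0.152) did not pass.

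Among receptors, 4 of 10 tested genes were lower in old tumours under anti-CTLA4. Il13ra2, the decoy receptor that binds IL-13, had the largest difference at -2.46 ± 0.53, with 1.156 ± 0.270 CPM in old (SD, n = 8) and 6.53 ± 4.09 CPM in young tumours (SD, n = 12), and it passed under anti-PD-L1 as well (-2.70 ± 0.80). Il2rg, the common gamma chain, was lower in old tumours (-1.26 ± 0.36), as were Crlf2, the TSLP receptor subunit (-0.69 ± 0.14), and Il4ra, the signalling chain for IL-4 and IL-13 (-0.62 ± 0.19).

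Of the other chemokines and chemokine receptors, 7 of 8 were lower in old tumours under anti-CTLA4, 4 under anti-PD-L1 and 3 under isotype. Ccl8, a ligand of CCR8 and other receptors in mice, averaged 344.6 ± 159.2 CPM in old (SD, n = 8) and 2408 ± 1623 CPM in young anti-CTLA4 tumours (SD, n = 12), a log2 fold change of -2.90 ± 0.45. Ccl1, the classical CCR8 ligand, had -2.79 ± 0.37, Ccl2 -1.86 ± 0.30 and Ccl7 -1.47 ± 0.32, the last 2 being monocyte attractants. Ccr3, the eotaxin receptor of eosinophils, had -1.71 ± 0.37 and Ccr8 -1.42 ± 0.44. Ccl1, Ccl2 and Ccr3 were lower in old tumours under all 3 antibodies.

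Genes known to respond to IL-4 and IL-13 in macrophages and dendritic cells, or to STAT5 and STAT6 signalling, gave 9 of 12 lower in old tumours under anti-CTLA4, 4 under anti-PD-L1 and 3 under isotype. Socs1 and Cish, feedback inhibitors of cytokine signalling, had -2.001 ± 0.25 and -1.56 ± 0.26 under anti-CTLA4. Pdcd1lg2, which encodes PD-L2, averaged 5.30 ± 3.24 CPM in old (SD, n = 8) and 41.0 ± 15.8 CPM in young tumours (SD, n = 12), a log2 fold change of -2.99 ± 0.42. Socs1, Cish and Pdcd1lg2 passed under all 3 antibodies, and which signal set their levels was not tested. Chil3, the chitinase-like protein Ym1, had the largest value (-5.25 ± 0.96 under anti-CTLA4 and -5.86 ± 1.71 under anti-PD-L1), Alox15 had -1.66 ± 0.37 and Arg1 -1.35 ± 0.33 under anti-CTLA4. Of the transcription factors, 1 of 8 passed under anti-CTLA4, Nfil3 at -0.79 ± 0.17, and 0 passed under the other antibodies. Gata3, the master regulator of T helper 2 cells, had -0.13 ± 0.19 and Stat6 -0.02 ± 0.15 under anti-CTLA4 (adjusted p = 0.619 and 0.937). The median of Gata3 over the 52 libraries was 52.9 CPM, beside 9.12 CPM for the T cell marker Cd4. Which cells carried Gata3 was not tested, so its value does not give the level of T helper 2 cells.

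**Figure D4:**
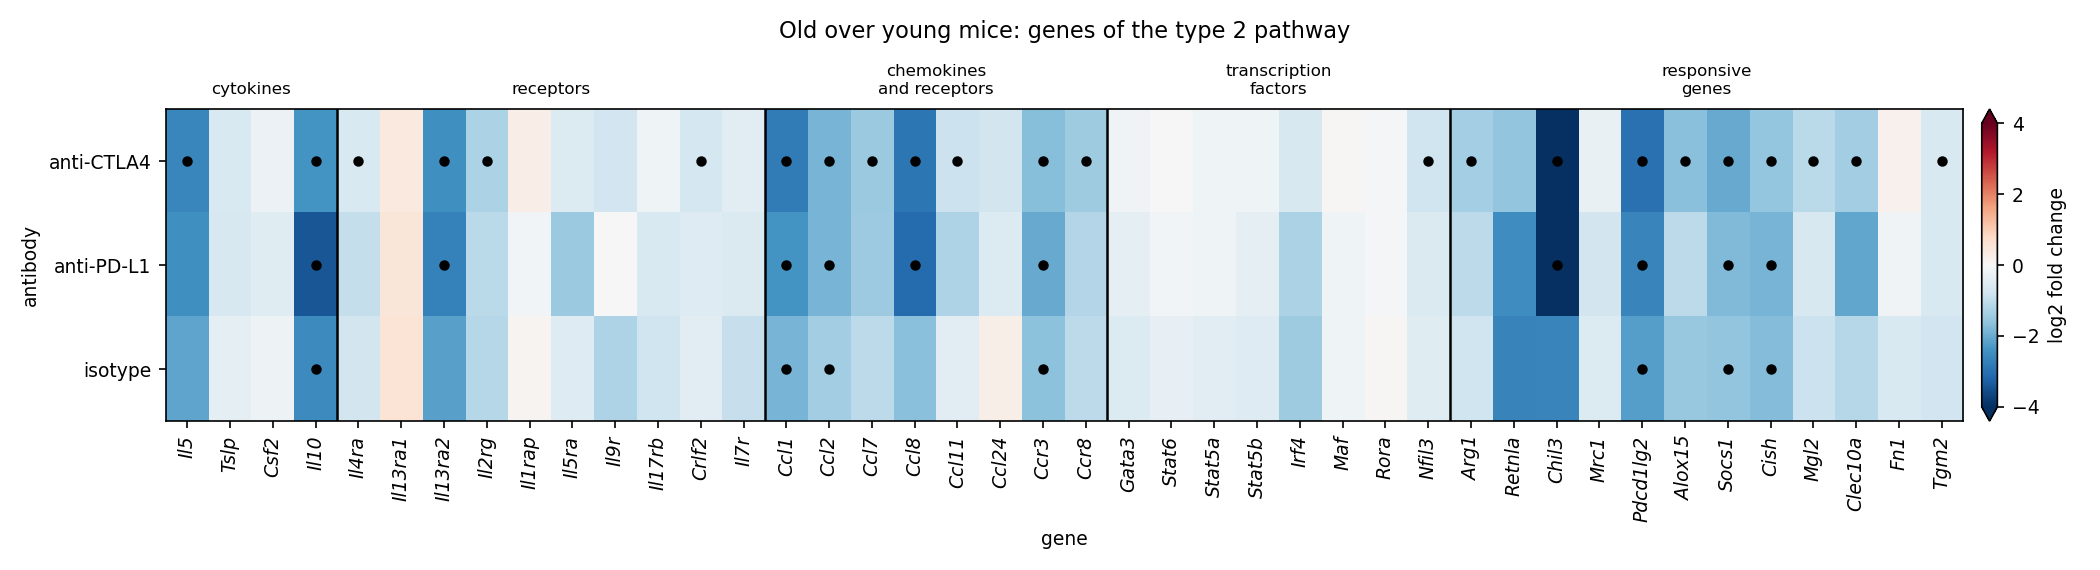
Log2 fold change of old over young mice for the 42 tested pathway genes (columns, by list) under each antibody (lines of the grid), blue for lower and red for higher in old mice, colours saturating at 4, with a dot where the adjusted p was under 0.05. Dots mark 23 genes under anti-CTLA4, 10 under anti-PD-L1 and 7 under isotype.

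Within an age no pathway gene passed for either antibody against isotype. The smallest p of the responsive genes belonged to Pdcd1lg2 for anti-CTLA4 in young mice (1.27 ± 0.50, adjusted p = 0.528), Tgm2 for anti-CTLA4 in old mice (0.70 ± 0.25, adjusted p = 0.0956), Tgm2 for anti-PD-L1 in young mice (0.52 ± 0.23, adjusted p = 0.167) and Fn1 for anti-PD-L1 in old mice (0.92 ± 0.33, adjusted p = 0.0878). Of the chemokines it belonged to Ccl24 (0.81 ± 0.37) and Ccl1 (-0.65 ± 0.38) for anti-CTLA4 in young and old mice, and to Ccl11 (0.50 ± 0.29) and Ccl8 (-1.41 ± 0.51) for anti-PD-L1 in young and old mice. Of the factors it belonged to Nfil3 (0.30 ± 0.21) and Stat5a (0.56 ± 0.18) for anti-CTLA4, and to Maf (0.41 ± 0.18) and Stat5a (0.56 ± 0.19) for anti-PD-L1, in the same order of ages. Il4ra had the smallest p of the receptors for anti-PD-L1 in young mice (0.50 ± 0.18, adjusted p = 0.107) and in old mice (0.29 ± 0.21, adjusted p = 0.345).

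Markers of the cells that make or receive these signals differed between ages too, and their part in the results was not tested. Under anti-CTLA4, where 15.9% of all tested genes were lower and 14.8% higher, lower in old tumours were 5 of 5 neutrophil, 4 of 5 basophil, 4 of 5 eosinophil, 4 of 6 mast cell, 5 of 7 T cell, 2 of 5 regulatory T cell and 3 of 4 type 2 dendritic cell markers, and 4 of 4 epithelial or tumour cell markers were higher. Of the mature dendritic cell markers 1 of 6 was lower. Of 4 type 1 dendritic cell markers 1 was lower and 1 higher, and 1 of 5 fibroblast markers was higher. No B cell, lymph node stroma, endothelial cell or adipocyte marker was called. Summed over its list, the eosinophil level ran from 3.48 to 9.38 CPM (median 7.31) in old tumours, against 9.05 to 168 CPM (median 25.7) in young tumours. The basophil level ran from 4.58 to 10.6 CPM (median 7.17) in old tumours, against 6.88 to 33.6 CPM (median 20.9) in young tumours. The mast cell level ran from 64.5 to 96.9 CPM (median 79.6) in old tumours, against 75.5 to 313 CPM (median 198) in young tumours. These are the classical non-lymphoid sources of IL-4 and IL-13, and each list had its median lower in old tumours with ranges that overlapped.

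The T cell level ran from 40.4 to 164 CPM (median 82.0) in old tumours, against 88.8 to 1040 CPM (median 222) in young tumours. The type 2 dendritic cell level ran from 125 to 235 CPM (median 169) in old tumours, against 202 to 461 CPM (median 349) in young tumours. The epithelial or tumour cell level ran the other way, from 1860 to 2840 CPM (median 2280) in old tumours, against 507 to 2370 CPM (median 1380) in young tumours. Of the macrophage markers 1 of 5 was lower, with a summed level of 751 to 1600 CPM (median 1230) in old tumours, against 1220 to 2190 CPM (median 1770) in young tumours. Of the type 2 innate lymphoid cell markers 1 of 5 was lower, with a summed level of 80.0 to 105 CPM in old tumours, against 66.3 to 115 CPM in young tumours. For both lists 1 of 5 is near the share over all genes. In the innate lymphoid list, Gata3 and Areg had medians of 52.9 and 32.4 CPM over the 52 libraries. Rora, Klrg1 and Il17rb had 3.92, 3.09 and 0.786 CPM, so the summed level mostly follows Gata3 and Areg. Of the defining markers, Epx was at 0 in 7 of 52 libraries and Prss34 in 8. Under isotype, 1 basophil, 1 eosinophil and 1 mast cell marker were lower in old tumours (4.04% of all genes), and under anti-PD-L1 the counts were 2, 3 and 1 (1.97% of all genes). The 5 basophil markers did not share a sign under isotype: 4 were negative and Mcpt8 was positive (1.10 ± 0.53, adjusted p = 0.185). Several lists share genes with the pathway lists: Mgl2 and Clec10a with type 2 dendritic cells, Ccr3 and Il5ra with eosinophils, and Gata3, Rora and Il17rb with type 2 innate lymphoid cells.

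The members did not vary as 1 block across the 52 libraries. Ccl22 and Ccr4, a ligand and its receptor, had the closest levels (Pearson's r = 0.811, Spearman's rho = 0.815, and r = 0.752 without the 2 farthest libraries), and rho was 0.796 after group and batch means were taken out. The pair Il4 and Il13 had r = 0.686 and rho = 0.684 (r = 0.656 without the 2 farthest libraries), and rho was 0.412 after group and batch means were taken out. The pair Ccl17 and Ccl22, which bind the same receptor, had r = 0.463 and rho = 0.362 (r = 0.349 without the 2 farthest libraries), with 0.249 after the means were taken out. Il33 and its receptor Il1rl1 had r = 0.508 and rho = 0.417 (r = 0.465 without the 2 farthest libraries), with 0.257 after the means were taken out. These values describe libraries that share depth, batch and cell makeup. The 2 farthest libraries were those farthest from the median of the gene named first, so extremes of the other gene could stay. The SD of log2 CPM within groups ran from 0.55 for Il1rl1 to 1.04 for Il13.

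The genes whose levels ranked most like each member were found among 13055 tested genes with a mean of at least 1 CPM, by Spearman's rho over 52 libraries. For Il13 they were Il24 (rho = 0.928), Pdcd1lg2 (0.912), Ccl8 (0.908), Rnf19b (0.9) and Tnfsf10 (0.897), of which the first 4 stayed among the closest 5 after group and batch means were taken out. For Ccl22 they were Ccr7 (0.915), Cd5 (0.912), Ctse (0.909), Cd4 (0.908) and Hvcn1 (0.901), and Ccr7 stayed closest after the means were taken out (0.892). For Ccr4 they were Hvcn1 (0.865), Cd5 (0.859), Il16 (0.855), Ctse (0.854) and Rassf5 (0.851), and after the means were taken out Il27ra led (0.897). Ccl22 and Ccr4 thus shared Cd5, Ctse and Hvcn1 among their closest genes.

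For Il1rl1 the closest were Tnfrsf11b (0.782), the mast cell genes Cpa3 (0.762) and Cma1 (0.717), Ccn3 (0.707) and the mast cell gene Mcpt4 (0.706), and after the means were taken out Mitf, a transcription factor of mast cells and melanocytes, led (0.683). For Il33 they were S1pr3 (0.83), Gfra2 (0.826), Tgm1 (0.81), Ptgir (0.808) and Gfra4 (0.806), and after the means were taken out Cxcl12 led (0.813), with the fibroblast gene Dcn among the 5 (0.777). For Il4 they were Gata1 (0.822), Glipr2 (0.817), P2rx1 (0.803), Pglyrp1 (0.791) and Gzma (0.788), and after the means were taken out Adora2a led (0.707), with Ctla4 among the 5 (0.685). For Ccl17 they were Il11ra1 (0.793), Fabp5 (0.792), Mgst1 (0.783), Uckl1 (0.775) and Batf3 (0.759), and after the means were taken out no gene exceeded 0.652 (Itgb1bp1).

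Against the marker lists, after group and batch means were taken out, Ccl22 and Ccr4 ranked with the mature dendritic cell level (rho = 0.881 and 0.855), the regulatory T cell level (0.851 and 0.824), the T cell level (0.811 and 0.807) and the B cell level (0.745 and 0.781). Lymph node stroma markers ranked with them as well (0.695 and 0.76). With the B cell level as a covariate, the old over young value of Ccl22 under anti-CTLA4 was -1.12 ± 0.22 and passed, and its values were -0.50 ± 0.33 under anti-PD-L1 and -0.62 ± 0.34 under isotype. Il1rl1 ranked with the mast cell (0.54), fibroblast (0.526) and basophil (0.525) levels and not with the T cell level (-0.0283). Il13 was highest with the basophil level (0.463), Il4 with the regulatory T cell (0.688) and T cell (0.665) levels, and Ccl17 with the basophil level (0.386). Il33 was highest with the mature dendritic cell (0.638), regulatory T cell (0.616) and B cell (0.604) levels, and had 0.529 with the fibroblast level.

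**Figure D5:**
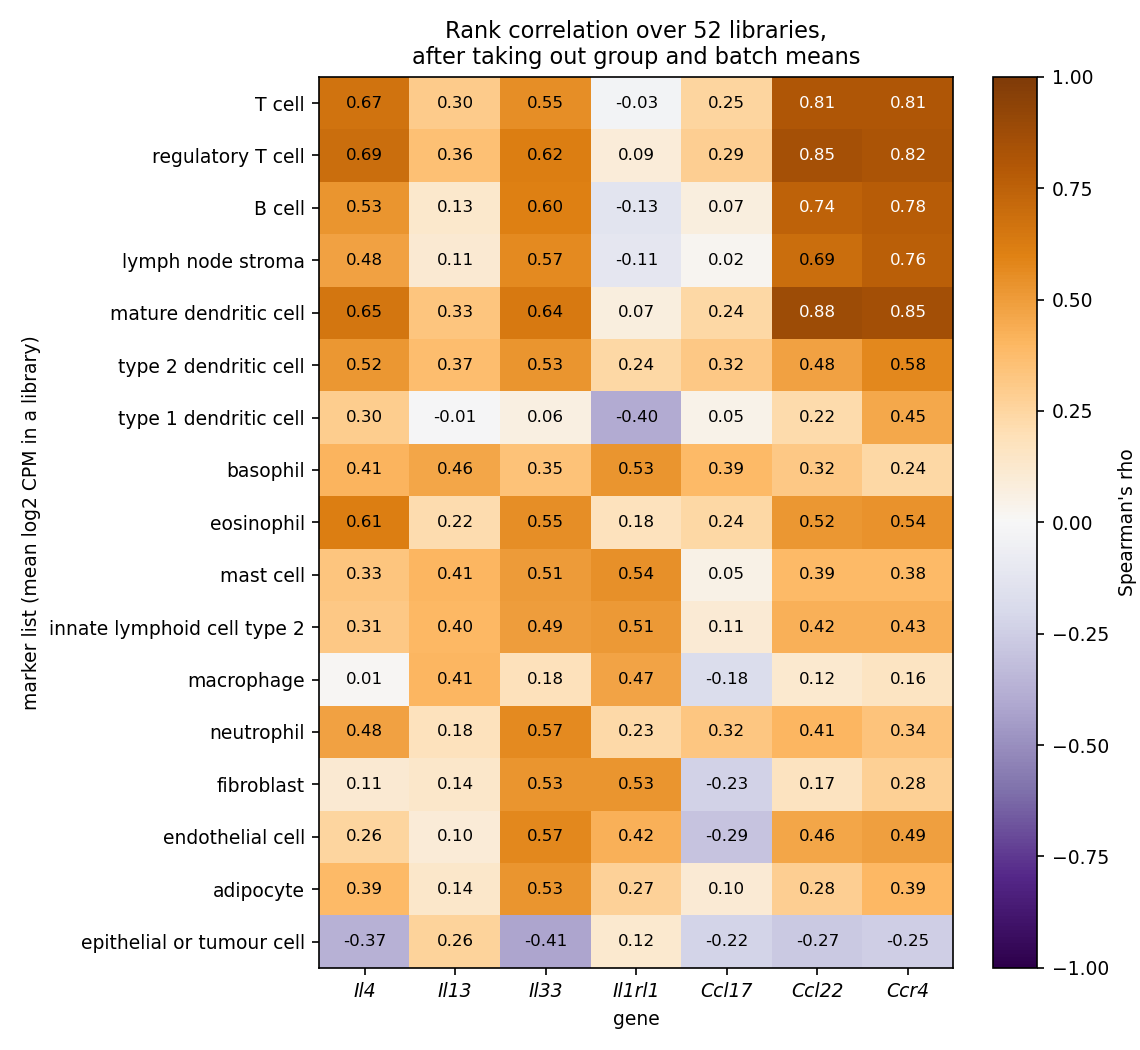
Spearman's rho over 52 libraries between each gene (columns) and the mean log2 CPM of each marker list (lines of the grid), after group and batch means were taken out. Ccl22 and Ccr4 have 0.807 to 0.881 with T cell, regulatory T cell and mature dendritic cell lists, and no list exceeds 0.386 with Ccl17.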

How the data were processed

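Tumour RNA was sequenced in 52 poly(A)-selected stranded libraries (500 ng of RNA, paired reads of 75 bp), per the labels' protocols. The authors deposited 1 table of estimated counts and 1 of TPM per Ensembl gene. Salmon (no version given), the build mm10 and DESeq2 1.16.1 stand in the submitters' processing notes, without their roles. Symbols came from GENCODE vM21 and matched 47224 of 47729 identifiers, and 11075 genes were at 0 in every library. The estimated counts were used as deposited, without rounding. After edgeR's filterByExpr, 17899 genes entered a quasi-likelihood F test (edgeR 4.0.16, limma 3.58.1, R 4.3.3) with TMM normalization and group and batch terms, and Benjamini-Hochberg adjustment over all of them with a threshold of 0.05. For log2 CPM the prior count was 2.

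The deposited counts followed TPM times gene length within a library, while the factor between TPM and CPM varied between libraries from 0.402 to 1.44 of its median. CPM was therefore used between libraries and TPM between genes. The members and lists were chosen with earlier results of these data known. The text names the 7 members in every comparison, the passing genes of each pathway list (up to 6 of smallest p, otherwise the gene of smallest p) and the 5 genes most like each member. Labels give each library a number but no animal, so the spread behind every p-value is that between libraries, which may be partly technical. No 2 libraries of a group were copies, since chi-square divided by its degrees of freedom was at least 19.2 in all 209 pairs. On simulated data, 48 of 100 genes changed 2-fold and 84 of 100 changed 4-fold were recovered for old against young under anti-CTLA4, 26 and 78 under isotype, and 43 and 80 for anti-CTLA4 against isotype in young mice. The alternatives were relative log expression normalization, no filter, no batch term, the replicate number as a block, the B cell level as a covariate, libraries of low TMM factor left out, the compared groups alone, 1 batch alone, DESeq2 1.42.0 (21 genes without a p) and each library left out in turn. Limma on log2(TPM + 0.1) was added after the data were seen. Old and young libraries shared no batch under isotype or anti-PD-L1, so the compared groups alone could not keep every batch term. That age fit set 3 old isotype libraries of batch 1 against the 7 young, and 8 old anti-PD-L1 libraries against 1 young library of batch 3. Both fits are counted among the other settings and enter their ranges.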

Additional observations from a re-analysis of the deposited data

Results flagged for a closer look

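Of 35 combinations of gene and group with 4 to 10 libraries, 2 held a library far from the others, and chance alone gives about 1 in 20. In old anti-PD-L1 tumours, Il4 was lowest in replicate 4 at 0.2176 CPM, with the next library at 0.706 CPM. On the log2 CPM scale, on which these gaps were measured, the lowest library was at -1.72, the next at -0.34 and the highest at 0.27, so that the gap took 0.695 of the group's range, above Dixon's critical value of 0.526 for 8 libraries. In the same group, Ccl17 was highest in replicate 6 at 15.41 CPM, with the next library at 6.818 CPM, and on the log2 CPM scale the values were 3.95 and 2.79 with the lowest library at 1.98, a gap of 0.59 of the range. Neither library's part in other results was tested beyond leaving it out.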

How the results depend on the processing

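No direction reversed among the called values. The old over young values of Il4, Il13 and Ccl17 under anti-CTLA4 passed under every alternative that could be fitted, leave-one-out fits included, while batch 1 alone gave no value for Il13. Members called out of 7 changed as follows. Old over young under anti-CTLA4 gave 6 in the reported fit, 3 in batch 1 alone (Il4, Il33, Ccl17) and 3 with limma on log2(TPM + 0.1) (Il4, Il13, Ccl17). Il1rl1 was lost as well with no filter, and both Il1rl1 and Ccl22 without libraries of TMM factor under 0.8. Old over young under isotype gave 2 in the reported fit, 1 with no filter, 0 with only the groups compared and 0 with limma on TPM, and 1 to 2 with libraries left out in turn. With only the groups compared, 3 old isotype libraries of batch 1 stood against the 7 young. Old over young under anti-PD-L1 gave 2 in the reported fit, and 0 with no filter, with the B cell level as a covariate, without libraries of TMM factor under 0.8 and with limma on TPM. With only the groups compared, the 8 old anti-PD-L1 libraries stood against 1 young library, so that count is left out. DESeq2 added Il33 there, and no batch term added Il33 and Il1rl1 and lost Il4. With libraries left out in turn it gave 0 to 4, with 4 (Il4, Il13, Il33, Il1rl1) without young replicate 1 and 0 without old replicate 3 or 4. With no batch term, anti-CTLA4 over isotype in young mice gave 3 in place of 0 (Il1rl1, Ccl17, Ccr4), and anti-CTLA4 over anti-PD-L1 in young mice gave 1 in place of 0 (Ccl17). Anti-PD-L1 over isotype in old mice gave 0 to 1 with libraries left out in turn, with Ccl17 passing without old isotype replicate 5. The cause of these changes was not tested.

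Whether replicate numbers pair the libraries was not settled, since pairs of the same number were not set against other pairs. In no comparison did every pair's deviations from group means correlate above 0.1. They did so in 1 of 8 pairs for old against young anti-CTLA4, 2 of 8 for anti-PD-L1 and 0 of 7 for isotype. In young mice they did in 4 of 7 for either antibody against isotype and 4 of 10 for anti-CTLA4 against anti-PD-L1, and in old mice in 2 of 7 for anti-CTLA4 and 4 of 7 for anti-PD-L1 against isotype, and 3 of 8 between the antibodies. With the replicate block, members called were 1 under isotype, 0 under anti-PD-L1 and 4 under anti-CTLA4 (Il4, Il13, Ccl17, Ccl22).

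Over all genes, old over young under isotype called 1505 genes, against 752 with the replicate block, 323 with only the groups compared, 3261 with no batch term, 2684 without libraries of low TMM factor, 2203 by DESeq2 and 940 with limma on TPM. Under anti-PD-L1 it called 903, against 35 with the replicate block, 409 with limma on TPM, 426 with no filter, 1532 by DESeq2 and 2192 with no batch term. Under anti-CTLA4 it called 5485, against 3596 in batch 1 alone. Anti-CTLA4 over isotype in young mice called 13 genes, against 1240 with no batch term, 51 by DESeq2, 6 without libraries of low TMM factor, 2 with the replicate block and 1 with limma on TPM. Anti-PD-L1 over isotype in young mice called 285, against 863 by DESeq2, 135 with the replicate block, 70 with limma on TPM and 18 without libraries of low TMM factor. Depth limits Il13, Il4 and Ccr4 most, with medians of 9.5, 21 and 22 counts a library.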
